A study of Mus musculus with 20 samples.

Results

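The 9 genes described here lie on mouse chromosome 15, the chromosome that carries the Fob3b obesity locus: Npr3, Azin1, Trib1, Myc, Slc45a4, Tigd5, Vps28, Slc25a17 and Pmm1. Every clone annotated to them was taken, which gave 14 of the 15360 clones and 9 of the 6970 genes on the 2 array designs. The first design held 8 clones of 7 of the genes, the second held 6 clones of 5, and Myc, Azin1 and Pmm1 were on both. The genes were chosen by their measured line ratios in liver and brown adipose tissue, so those ratios are given as a description. The question was whether the ratio of a gene lay on the same side in both tissues, as a difference in or near the gene itself could give.

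The study compared RNA of the Fob3b line with RNA of the F line in 20 two-colour hybridisations, 10 on each design of spotted cDNA array. As background, F is a mouse line selected for fatness, and at the locus the Fob3b line has lean-line alleles in an F background. Animals of both lines are represented only as RNA pools, 2 pools per line in liver and 2 in brown adipose tissue, a fat depot that burns lipid for heat. The sources used here give neither the number, age and sex of the animals in a pool nor the limits of the chromosome segment that differs between the lines. Which of the 9 genes lie inside that segment was therefore not determined. On the first design Fob3b pool 1 met F pool 1 and Fob3b pool 2 met F pool 2, in liver and in brown adipose tissue, each in both dye orientations, which made 4 arrays per tissue. A further 2 arrays held 1 liver pool against itself, 1 for each line. The second design held the same 4 kinds of liver array, 2 brown adipose arrays of pool pair 1, 2 liver arrays that paired pool 1 of a line with pool 2 of the other, and 2 liver arrays of pool 2 against pool 1 within a line. The within-line arrays, 1 per line, both had pool 2 in red and no dye swap. The text describing the brown adipose slides of the second design names the F line on both sides, while their channel labels put Fob3b in 1 channel. The channel labels were followed, and every brown adipose value of that design rests on them. The text of the Fob3b array against itself names both lines, and its channels name Fob3b alone.

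All values are log2 ratios of the dyes after subtraction of the median clone of the array, turned so that Fob3b stands over F wherever both lines were on the array. The labels name neither the numerator of the ratio nor the base of the logarithm, which was read as 2. A value on the positive side means more of the RNA in Fob3b if red was divided by green, and in the opposite case every sign given here turns. In pooled tissue, fewer cells of a type and less RNA per cell cannot be told apart. A ratio within 1 tissue holds no level, so the tissue labels could not be checked against marker genes. Some cell type markers had line ratios of similar size to those of the listed genes. In brown adipose tissue both measured muscle genes, Tpm2 at -0.58 and Actn3 at -0.47, were negative on the first design, and both, Tpm2 at 0.73 and Mylpf at 0.69, were positive on the second. The 1 measured brown adipocyte marker was Lpl at -0.25 on the first design and Elovl3 at -0.06 on the second. Both measured macrophage markers were negative in liver on the first design, Lyz2 at -0.44 and Laptm5 at -0.26, and the second design had C1qa at -0.04 and C1qb at 0.02. All 4 measured hepatocyte markers were negative in liver on the first design, with a median of -0.16, and none was measured on the second. The part of these markers in the results below was not tested.

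As background, RNA of a gene can differ between lines because of a sequence difference at the gene itself, which acts in cis on that copy, or because of factors encoded elsewhere, which act in trans. A cis difference in a promoter used by several tissues may show in each of them, while one in a tissue-specific element may show in 1 alone. The genes belong to unrelated pathways: signalling and transcription control (Npr3, Trib1, Myc), polyamine and mannose metabolism (Azin1, Pmm1), membrane transport (Slc25a17, Slc45a4), vesicle sorting (Vps28) and a transposase-derived gene (Tigd5).

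Along the chromosome the order was Npr3, Azin1, Trib1, Myc, Slc45a4, Tigd5, Vps28, Slc25a17 and Pmm1. Among the 281 chromosome 15 genes measured on either design they held places 22, 61, 91, 93, 102, 111, 128, 168 and 177, so the first and last were 156 places apart, both ends counted. The genes are thus not a tight cluster of neighbours. Trib1 and Myc were the closest pair, and Slc25a17 and Pmm1 lay 9 places apart.

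Promoter sequences of 3 of the 9 genes, Npr3, Slc25a17 and Pmm1, were in the RefSeq table supplied, from 250 bases before to 50 bases after the gene start in build GRCm38.p6. They are shown because a cis difference would have to lie in such sequence or elsewhere around the gene, and because Slc25a17 and Pmm1 stand near each other and took different sides in brown adipose tissue. They are the sequence of the reference genome, not of either line. All 3 are on the minus strand and are printed 5′ to 3′ as the gene reads. Capitals mark GGGCGG, the GC box, and CCAAT, each searched on both strands (CCGCCC and ATTGG).
Pmm1, chr15:81960881-81961180: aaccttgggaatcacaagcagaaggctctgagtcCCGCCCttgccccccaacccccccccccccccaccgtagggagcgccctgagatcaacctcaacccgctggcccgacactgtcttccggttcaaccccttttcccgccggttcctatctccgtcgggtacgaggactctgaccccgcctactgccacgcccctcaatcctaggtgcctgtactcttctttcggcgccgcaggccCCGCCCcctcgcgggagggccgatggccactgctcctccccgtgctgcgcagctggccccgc
Slc25a17, chr15:81360716-81361015: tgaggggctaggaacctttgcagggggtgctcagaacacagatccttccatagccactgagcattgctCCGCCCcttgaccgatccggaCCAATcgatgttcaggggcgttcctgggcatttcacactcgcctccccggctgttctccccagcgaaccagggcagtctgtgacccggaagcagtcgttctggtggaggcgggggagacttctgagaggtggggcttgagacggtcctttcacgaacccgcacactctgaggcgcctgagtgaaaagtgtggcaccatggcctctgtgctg
Npr3, chr15:11907322-11907621: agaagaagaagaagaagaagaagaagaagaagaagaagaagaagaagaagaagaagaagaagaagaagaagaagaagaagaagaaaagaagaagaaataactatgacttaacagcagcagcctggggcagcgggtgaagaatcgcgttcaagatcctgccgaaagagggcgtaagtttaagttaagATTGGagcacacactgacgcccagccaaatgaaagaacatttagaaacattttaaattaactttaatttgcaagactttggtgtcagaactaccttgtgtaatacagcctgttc
The Pmm1 promoter held 2 GC boxes and no CCAAT, with first bases at -216 and -12 from the start. The Slc25a17 promoter held 1 GC box at -182 and 1 CCAAT at -161, and the Npr3 promoter held 1 CCAAT at -64. Of all 32851 promoters supplied, 35.7% held a GC box and 37.4% a CCAAT. Guanine and cytosine made up 68% of the Pmm1 promoter, 60.7% of that of Slc25a17 and 39% of that of Npr3, against a median of 52.7%. The Npr3 promoter opens with a run of the triplet aga. These matches describe the sequence and were not tied to the ratios.

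No clone of the first design passed limma's test in either tissue. At an adjusted p under 0.05, 0 of 7680 clones passed in liver (0%) and 0 in brown adipose tissue (0%), the 8 listed clones included. At an unadjusted p under 0.05 there were 253 clones (3.29%) in liver and 65 (0.846%) in brown adipose tissue. Liver on the second design had 29 clones (0.378%) past it, 2 positive (0.026%) and 27 negative (0.352%), and 1 of the 6 listed clones, Azin1 clone 23793, was among the negative ones. Since these ratios were known when the genes were listed, nothing is read from that count.

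Npr3 encodes the clearance receptor that takes up and removes natriuretic peptides, hormones that drive fat breakdown in adipose tissue. It was read by a pair of clones on the first design. Clone 7298 gave 0.57 and 0.40 in liver pool pair 1, with Fob3b in red and in green, and 0.01 and 1.19 in pool pair 2. In brown adipose tissue the same orientations gave -0.19 and 0.64 in pool pair 1 and 0.33 and -0.34 in pool pair 2. All 4 liver arrays were thus positive, 1 of them barely, while each brown adipose pair held 1 array on either side.

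The other Npr3 clone, 11972, showed the reverse arrangement. It gave 0.05, -0.17, 0.03 and 0.06 in liver, in the same order of arrays, and its brown adipose values were 0.79, 0.09, 0.16 and 0.72. Liver lay within 0.2 of 0, and all 4 brown adipose arrays were positive and above every liver array. Clone means were 0.54 (SE 0.19) in liver and 0.11 (SE 0.19) in brown adipose tissue for clone 7298, and -0.01 (SE 0.19) and 0.44 (SE 0.19) for clone 11972, with n = 2 pool pairs. Averaged over both clones Npr3 was positive in liver at 0.27 and in brown adipose tissue at 0.27, but each tissue owed its value to a different clone. On the arrays of 1 liver pool against itself, where no line difference exists, clone 11972 read 0.50 for Fob3b RNA and 0.74 for F RNA, beyond its brown adipose mean. Clone 7298 read 0.13 and 0.28 there. The arrays of a pool against itself were of liver and without a dye swap, whereas the brown adipose mean averaged both dye orientations. Of the other natriuretic peptide genes 3 were measured on the first design, with 2 positive in liver at a median of 0.08 and 1 in brown adipose tissue at a median of -0.18. Nppb, the gene of a natriuretic peptide, had 0.21 in liver and -0.22 in brown adipose tissue.

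Trib1, a Tribbles pseudokinase that brings C/EBP transcription factors to the COP1 ubiquitin ligase and restrains lipid synthesis in mouse liver, was on the second design alone. Its clone 32158 gave 0.05 and 0.03 in liver pool pair 1, with Fob3b in red and in green, and -0.13 and -0.25 in pool pair 2. Brown adipose pool pair 1 gave -0.27 and -0.40. The liver pool pairs lay on opposite sides and the brown adipose arrays on the negative side. The mean was -0.08 (SE 0.09) in liver and -0.34 in brown adipose tissue, so both means were negative, although without liver pool pair 2 the liver value was 0.04. On the within-line arrays, pool 2 stood over pool 1 at -0.35 in Fob3b and at 0.12 in F. Without a dye swap, a difference between pools and one between dyes cannot be told apart on these arrays. The measured genes of the Tribbles, COP1 and C/EBP list on this design, Fasn and Map2k1, were positive in both tissues. Fasn, the fatty acid synthase, had 0.63 in liver and 0.98 in brown adipose tissue, and Map2k1 had 0.09 in each. Fasn passed limma's threshold in liver on this design in the fit with clones of a gene averaged. On the first design Fasn had 0.06 in liver and 0.61 in brown adipose tissue. There Trib3 had 0.03 and 0.23, Cop1 had -0.28 and 0.07, and none of these passed.

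Myc, the growth-promoting transcription factor, was read by 1 clone on each design. Clone 6870 on the first gave -0.05 and 0.13 in liver pool pair 1 and 0.55 and -0.34 in pool pair 2. In brown adipose tissue it gave 0.32 and 0.48 in pool pair 1 and -0.46 and 0.32 in pool pair 2. In liver each pair split over both sides, and 3 of the 4 brown adipose arrays were positive. Clone 22464 on the second gave -0.02, -0.08, 0.14 and -0.09 in liver and, in brown adipose pool pair 1, 0.36 and 0.27. The brown adipose RNA of pool pair 1 therefore gave a positive value on all 4 arrays that held it, by both clones, as centred on the array. On the first-design array of that pair with Fob3b in green, the printing block of clone 6870 had a median of 0.82, above the 0.48 of the clone. With printing blocks centred the brown adipose mean of clone 6870 was 0.03. Liver means were 0.07 (SE 0.20) on the first design and -0.01 (SE 0.08) on the second, and brown adipose means were 0.16 (SE 0.20) and 0.31. Of 15 other genes of the MYC network and its classical targets on the first design 6 were positive in liver (median -0.06) and 10 in brown adipose tissue (median 0.02). The second design had 5 of 10 positive in liver and 6 of 10 in brown adipose tissue. These shares stood near those of all genes, 44.9% and 59.3% on the first design and 51.4% and 56.1% on the other.

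**Figure D1:**
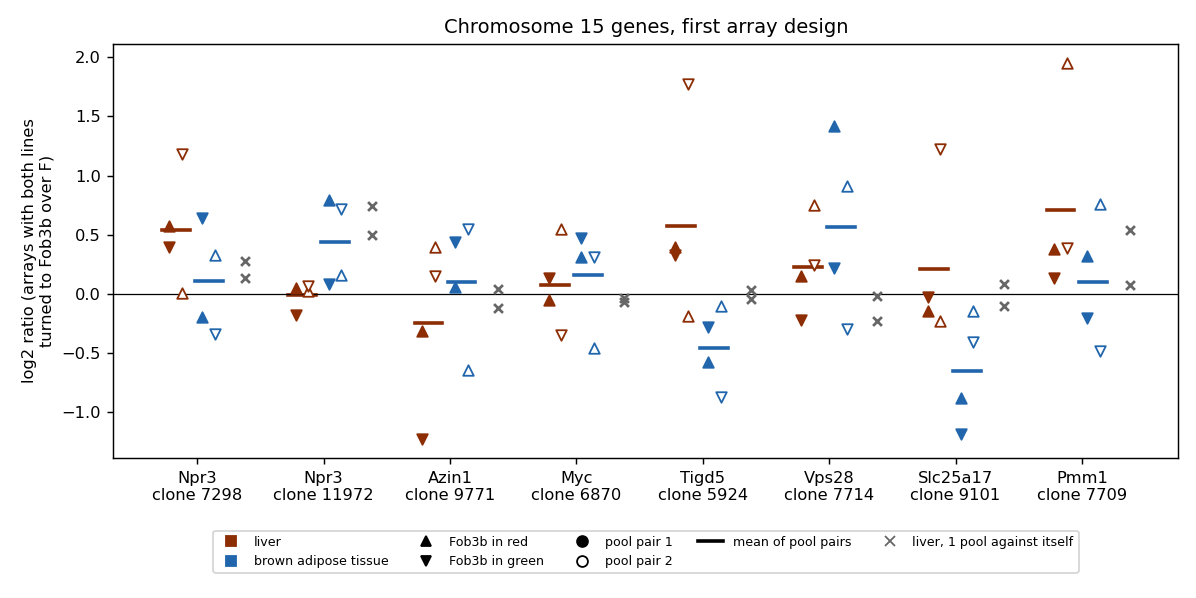
Log2 ratio (vertical axis) of each clone of the listed chromosome 15 genes on the first design, in order along the chromosome, with liver left of brown adipose tissue. Triangles are single arrays, pointing up with Fob3b in red and down with it in green, filled for pool pair 1 and open for pool pair 2. Bars are means of the pool pairs, and crosses are arrays of 1 liver pool against itself. Single open symbols stand far from the rest for Tigd5 at 1.77, Slc25a17 at 1.22 and Pmm1 at 1.95.

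Azin1 encodes antizyme inhibitor 1, which frees ornithine decarboxylase from antizyme and so raises polyamine synthesis. Its 3 clones did not give 1 answer. Clone 9771 on the first design gave -0.31 and -1.23 in liver pool pair 1 and 0.40 and 0.15 in pool pair 2, with Fob3b in red and in green. Brown adipose arrays gave 0.06 and 0.44 in pool pair 1 and -0.65 and 0.55 in pool pair 2. The liver pool pairs took opposite sides, with an SD of 0.74 between them, and the mean of -0.25 (SE 0.25) had the sign of pool pair 1 alone.

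Clone 23793 on the second was negative on every array that set the lines directly against each other. It gave -0.98 and -0.27 in liver pool pair 1, -0.80 and -0.42 in pool pair 2, and -0.74 and -0.18 in brown adipose pool pair 1. The value with Fob3b in red was in each pair the more negative one. The mean was -0.62 (SE 0.08, limma adjusted p 0.0422) in liver, a 1.53-fold difference, and -0.46 in brown adipose tissue. The SD between the liver pool pairs of this clone was 0.015, and its SE came mostly from the spread shared over all clones. The adjusted p takes no direct account of the gap between its dye orientations. No listed clone passed with printing blocks centred (smallest adjusted p 0.151), with arrays scaled to a common spread (0.0939), with the first spots alone (0.138), with Fob3b in red alone (0.318) or in green alone (0.421), with every array as its own replicate (0.0663) or with the crossed-pool arrays added. No listed gene passed with clones of a gene averaged (0.291). The liver mean of clone 23793 was -0.50 with blocks centred, -0.63 with arrays scaled, -0.64 with the first spots, -0.89 in red, -0.34 in green and -0.38 with the crossed arrays. The other Azin1 clone of this design, 28942, took the positive side in both tissues. It gave 0.28, -0.03, 0.13 and 0.22 in liver, and both brown adipose arrays gave 0.49, with means of 0.15 (SE 0.08) and 0.49. Each clone thus kept 1 side in both tissues, but on opposite sides from the other, and which transcript or part of Azin1 either clone covers was not determined. Their average, -0.23 in liver and 0.01 in brown adipose tissue, hides this.

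The within-line arrays gave these Azin1 clones opposite sides too. Pool 2 stood over pool 1 at 0.16 in Fob3b and 0.35 in F for clone 23793, and at -0.46 and -0.27 for clone 28942. Each clone had the same side in both lines, and pool and dye cannot be told apart there, since pool 2 was in red on both arrays. Polyamine genes other than Azin1 numbered 4 on the first design, with 2 positive in liver and 4 in brown adipose tissue, where the median was 0.08. Of 8 on the second design 5 were positive in liver (median 0.04) and 6 in brown adipose tissue (median 0.16). On the first design Odc1, the ornithine decarboxylase itself, had 0.12 in liver and 0.04 in brown adipose tissue.

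Pmm1, a phosphomannomutase that makes mannose 1-phosphate for protein glycosylation, was the 1 gene of the 3 on both designs whose means were positive in both tissues on each. Clone 7709 on the first design gave 0.38 and 0.13 in liver pool pair 1 and 1.95 and 0.38 in pool pair 2. Brown adipose arrays gave 0.32 and -0.20 in pool pair 1 and 0.76 and -0.49 in pool pair 2. Liver was positive on all 4 arrays, and brown adipose tissue was positive with Fob3b in red and negative with it in green. The liver mean was 0.71 (SE 0.23), a 1.64-fold difference and larger in size than that of 99.7% of the clones, and the brown adipose mean was 0.10 (SE 0.23).

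The liver value of 1.95 came from spots of the same clone that read 0.69 and 3.21. With the first spots alone the liver mean was 0.51, with the second spots alone 0.91, and without that array 0.32. The array of the Fob3b pool against itself read 0.07, and that of the F pool read 0.54, above 87.6% of the clones. Without liver pool pair 1 the mean was 1.17 and the clone passed limma's threshold (adjusted p 0.0212), on the pair that holds the value of 1.95 alone. Without liver pool pair 2 the mean was 0.25 and no listed clone passed (smallest adjusted p 0.148). In both fits the remaining liver pair was assumed to vary as brown adipose tissue did. Clone 25002 of the second design gave 0.29, 0.08, 0.31 and 0.04 in liver and, in brown adipose pool pair 1, 0.07 and 0.04. All 6 arrays were positive, with means of 0.18 (SE 0.08, limma adjusted p 0.521) and 0.05. The brown adipose value of the second design was -0.04 with each printing block centred on its own median, and with no centring liver and brown adipose tissue had -0.19 and -0.30. The shared positive side of Pmm1 on that design thus depended on how arrays were centred.

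Of the genes that supply mannose and build the dolichol-linked glycan, 10 were measured on the first design. In liver 8 of them were positive, against 44.9% of all genes, and 2 were negative, with -0.16 the lowest. Their median was 0.18 against -0.02 for all genes, and the largest were Alg3 at 0.67, Alg10b at 0.37 and Gmppb at 0.37. Among brown adipose means 4 of 10 were positive, with a median of 0.00. The second design had 4 of 5 positive in liver (median 0.08, Mpdu1 at 0.22), where 51.4% of all genes were positive, and 3 of 5 in brown adipose tissue (median 0.12). No gene of the list passed the threshold in either design.

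**Figure D2:**
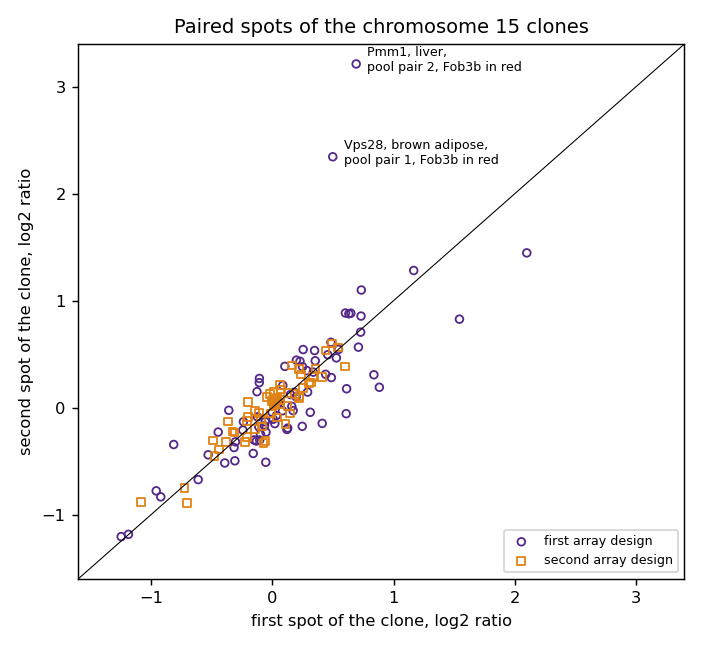
Log2 ratio of the first spot (horizontal axis) against that of the second spot (vertical axis) of each listed clone, with 1 point per clone and array, 80 for the first design and 60 for the second, and the diagonal of equal values. Pmm1 in liver pool pair 2 and Vps28 in brown adipose pool pair 1, both with Fob3b in red, lie far above the diagonal.

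Slc25a17, a carrier of the peroxisome membrane that moves coenzyme A and other nucleotide cofactors, took opposite sides in the tissues. Clone 9101 gave -0.15 and -0.02 in liver pool pair 1 and -0.23 and 1.22 in pool pair 2. Brown adipose arrays gave -0.88 and -1.19 in pool pair 1 and -0.14 and -0.40 in pool pair 2. All 4 brown adipose arrays were negative, and 3 of the 4 liver arrays were too. With 1.22 so far from the other arrays, the sign of the liver mean of 0.21 (SE 0.24) was set by the single array of pool pair 2 with Fob3b in green, without which the mean was -0.16. On that array 74.1% of the variance between clones lay between printing blocks, and the block holding Slc25a17 had a median of 0.53. Its part in the value was not tested. With printing blocks centred the liver mean was -0.07 and the brown adipose mean -0.67, on the same side. The brown adipose mean as centred on the array was -0.65 (SE 0.24), a 1.57-fold difference and larger in size than that of 99.8% of clones.

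Of 40 listed genes of peroxisome biogenesis and beta-oxidation, 5 were measured on the first design. All 5 were positive in brown adipose tissue, where 59.3% of all genes were, with a median of 0.23, led by Nudt7, a coenzyme A hydrolase of peroxisomes, at 0.47 and Hsd17b4, an enzyme of peroxisomal beta-oxidation, at 0.33. In liver all 5 were negative, with a median of -0.43 and with Hsd17b4 at -0.53 and Pex11a, a factor of peroxisome division, at -0.43. With 15 measured on the second design, 8 were positive in liver (median 0.00) and 11 in brown adipose tissue (median 0.10), where 56.1% of all genes were positive. Pxmp2, a peroxisomal membrane protein gene, had the brown adipose value farthest from 0 among these, -0.44, and Hsd17b4 had -0.26 in liver. None passed the threshold.

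Slc45a4, a member of a family of proton-coupled sugar transporters, was measured on the second design. Clone 25984 gave 0.16, 0.05, 0.16 and 0.05 in liver, with the red orientation first in each pair. It gave 0.54 and 0.55 in brown adipose pool pair 1. All 6 arrays were positive, and both brown adipose arrays exceeded every liver array. The means were 0.11 (SE 0.08) in liver and 0.55 in brown adipose tissue, a 1.46-fold difference larger in size than that of 97.1% of clones. Slc2a4, the insulin-responsive glucose transporter and the 1 other gene of the sugar carrier list on this design, had 0.15 in liver and 0.65 in brown adipose tissue.

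Vps28, a subunit of the ESCRT-I complex that sorts ubiquitin-tagged membrane proteins into multivesicular bodies, was positive in both tissues on the first design. Clone 7714 gave 0.15 and -0.22 in liver pool pair 1 and 0.75 and 0.24 in pool pair 2. Brown adipose arrays gave 1.42 and 0.22 in pool pair 1 and 0.91 and -0.29 in pool pair 2. In each of the 4 pairs the array with Fob3b in red read higher, and in brown adipose tissue the mean was 1.17 with Fob3b in red and -0.04 with it in green. Averaged over both orientations the means were 0.23 (SE 0.22) in liver and 0.57 (SE 0.22) in brown adipose tissue, the second larger in size than 99.7% of clones. Without liver pool pair 2 the liver value was -0.04. The value of 1.42 came from spots that read 0.50 and 2.35, and with the first spots alone the brown adipose mean was 0.34. Both disagreeing spot pairs, this one and that of Pmm1, lay in printing block 22 and had Fob3b in red. They were the 2 of 80 listed values on the first design whose spots differed by more than 1, where the median difference over all clones was 0.118 and the 99th percentile 0.783. None of the 60 values on the second design differed by that much. Other ESCRT genes did not stand to 1 side on the first design: 5 of 10 were positive in liver (median 0.00) and 4 of 10 in brown adipose tissue (median -0.01). On the second, 3 of 9 were positive in liver (median -0.02) and 7 of 9 in brown adipose tissue (median 0.12).

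Tigd5 derives from a transposase of the pogo and tigger family. Clone 5924 gave 0.39 and 0.33 in liver pool pair 1 and -0.19 and 1.77 in pool pair 2, and -0.58, -0.28, -0.10 and -0.87 in brown adipose tissue. All 4 brown adipose arrays were negative and 3 of the 4 liver arrays positive, with -0.19 in liver inside the brown adipose range. The means were 0.58 (SE 0.20) in liver and -0.46 (SE 0.20) in brown adipose tissue. The liver value of 1.77 came from the same array as the high value of Slc25a17, where the block of Tigd5 had a median of 0.53, and without that array the liver mean was 0.09. Npr3 clone 7298 also read highest there, and its liver mean without it was 0.25. With blocks centred the means were 0.43 and -0.42, so the opposite sides remained. Of the other genes of the family 5 were measured, on the second design alone, with 2 positive in liver and 1 in brown adipose tissue, at a median of -0.12.

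**Figure D3:**
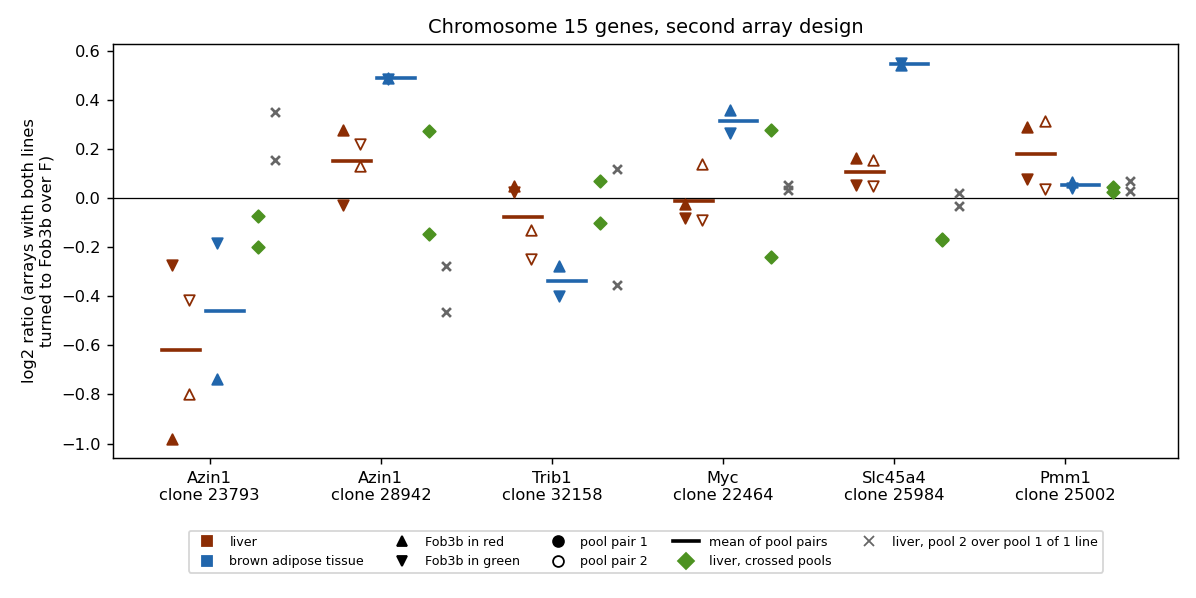
Log2 ratio (vertical axis) of each listed clone on the second design, with symbols as on the first: triangles for single arrays, bars for means, liver left of brown adipose tissue. Diamonds are liver arrays of crossed pools, and crosses are liver arrays of pool 2 over pool 1 within a line. Azin1 clone 23793 is negative on all 6 direct arrays, and the other Azin1 clone is positive on 5 of them.

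Set together, the tissues shared a side for 4 of the 7 genes on the first design: Npr3, Myc, Vps28 and Pmm1, all on the positive side. That share, 57.1%, stood beside 56 of 155 (36.1%) for the other chromosome 15 genes and 1550 of 3838 (40.4%) for all genes. Azin1 was negative in liver and positive in brown adipose tissue, and Tigd5 and Slc25a17 were positive in liver and negative in brown adipose tissue. The liver side of Slc25a17 was set by 1 array. Both its means were negative without that array (liver -0.16) and with printing blocks centred (liver -0.07). Genes sharing a side numbered 5 without that array (51% of all genes), 5 with blocks centred (40.4%) and 1 with Fob3b in green alone (48.3%). The second design had 3 of 5 genes sharing a side, Pmm1 and Slc45a4 on the positive and Trib1 on the negative one. Here the share of 60% was near that of the other chromosome 15 genes, 91 of 155 (58.7%), and of all genes, 2559 of 4075 (62.8%). With so few genes, chosen with these values in view, a share above that of all genes is a description of the list.

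The background against which tissues share a side differed between the designs. Over all clones the liver and brown adipose means correlated at -0.22 on the first design, and the second had 0.45. Array centring and pool numbers are shared by all clones of an array, and printing position by the clones of 1 of its 48 blocks. Without centring, 25.4% of all genes of the first design and 96.3% of the second shared a side, because the median clone stood at -0.11 in liver and 0.30 in brown adipose tissue on the first and at -0.37 and -0.36 on the second. The number of listed genes on 1 side was then 3 of 7 and 4 of 5. On the second design this turned the liver values of Slc45a4, Azin1 clone 28942 and Pmm1 negative, at -0.26, -0.22 and -0.19, and the brown adipose values of Myc and Pmm1, at -0.04 and -0.30. Azin1 clone 23793 and Trib1 were negative in both tissues either way.

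A stricter count asked for every pool pair of both tissues on 1 side. On the first design 2 of the 7 genes met it, against 261 of 3838 genes (6.8%), and these were Npr3 and Pmm1. On the second 2 of 5 did, Pmm1 and Slc45a4, against 1522 of 4075 (37.3%), with 3 pool pairs in place of 4. For Npr3 the count used the mean of the clones, which disagreed as described. For Pmm1 on the first design both brown adipose pairs were positive with Fob3b in red and negative with it in green. The genes were chosen with these values in view, so a share above that of all genes is a description of the list.

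**Figure D4:**
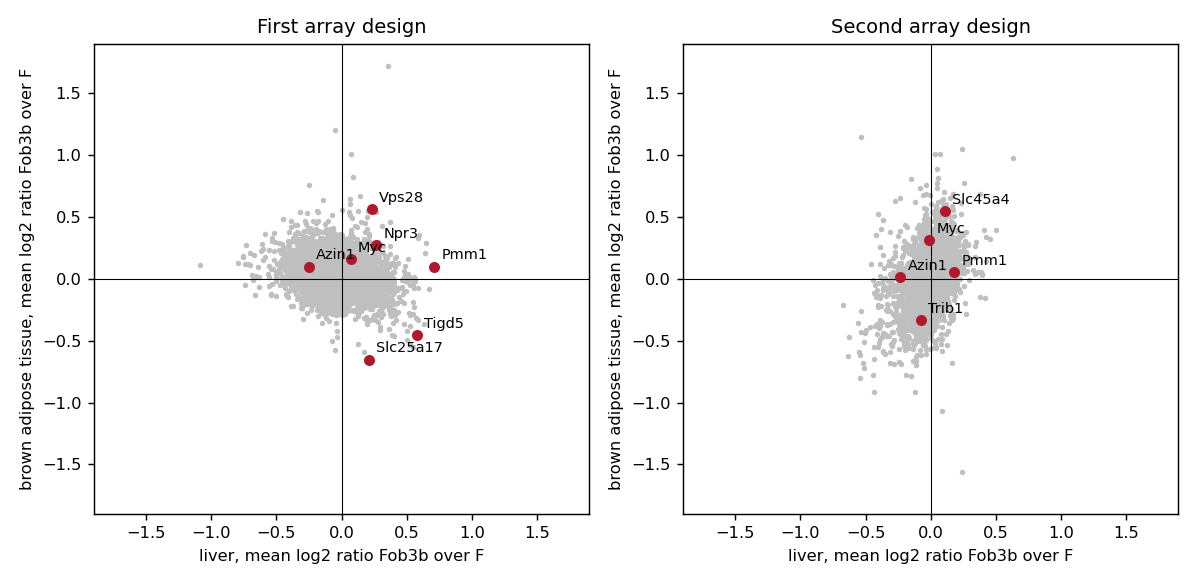
Mean log2 ratio in liver (horizontal axis) against that in brown adipose tissue (vertical axis) for every gene of each design in grey and the listed genes in red. Points at the upper right and lower left share a side. Tigd5 and Slc25a17 lie at the lower right of the first design, and Vps28, Npr3, Myc and Pmm1 at the upper right.

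The difference between the tissues was also fitted directly on the first design, as liver minus brown adipose tissue. It was 1.03 (SE 0.28) for Tigd5, 0.86 (SE 0.34) for Slc25a17, 0.61 (SE 0.33) for Pmm1 and 0.43 (SE 0.27) for Npr3 clone 7298. This order turned on 1 array: without liver pool pair 2 with Fob3b in green the difference was 0.55 for Tigd5, 0.50 for Slc25a17, 1.004 for Pmm1 and 0.14 for Npr3 clone 7298. For Pmm1, liver pool pair 2 was then the array at 1.95 alone, whose spots read 0.69 and 3.21. With all arrays the difference was -0.45 (SE 0.27) for Npr3 clone 11972, -0.35 (SE 0.35) for Azin1, -0.33 (SE 0.31) for Vps28 and -0.09 (SE 0.28) for Myc. With limma 0 of 7680 clones passed for this contrast (0%), and 220 (2.86%) had an unadjusted p under 0.05. The tissues of the listed genes were thus neither shown to differ nor shown to be alike.

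Agreement of the dye orientations limited these readings. For 4 of the 8 clones on the first design the liver mean had 1 sign with Fob3b in red and the other with Fob3b in green, and the same held for 4 of 8 in brown adipose tissue. It held on the second design for 1 of 6 clones in liver and 0 of 6 in brown adipose tissue. The share of all clones with differing signs was not computed, so these counts describe the listed clones alone. Over all clones the turned orientations of a pair correlated at 0.16 and -0.29 in liver and at -0.23 and -0.60 in brown adipose tissue, all on the first design. On the second these were 0.08 and 0.40 in liver and 0.47 in brown adipose tissue. Clones with 1 sign on all 4 arrays made up 8.24% of the first design in liver and 5.85% in brown adipose tissue, and 19% of the second in liver, and 62% kept 1 sign on both brown adipose arrays of the second. Among the listed clones, 2 of 8 had 1 sign on all 4 liver arrays of the first design, Npr3 clone 7298 and Pmm1. In brown adipose tissue 3 of 8 did, Tigd5, Slc25a17 and Npr3 clone 11972. The genes were chosen with these values in view, so nothing is read from a share above that of all clones.

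The crossed-pool arrays of the second design held the same 4 liver pools in other pairs, each pairing in 1 dye orientation, so their mean and that of the direct arrays weigh the pools equally. Of the 6 listed clones 4 lay on the side of the direct mean, against 3839 of all 7680 (50%). Azin1 clone 23793 had -0.14 on the crossed arrays, at -0.20 and -0.07, against -0.62 on the direct ones, and clone 28942 had 0.06 against 0.15. Pmm1 had 0.04 against 0.18 and Trib1 -0.02 against -0.08. Slc45a4 changed side, with -0.17 on both crossed arrays against 0.11 on the direct ones, and Myc had 0.02 against -0.01. The crossed values of the clones on the direct side were thus all smaller in size. Over all clones the crossed and direct means correlated at 0.12.

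Myc, Azin1 and Pmm1 were read by different clones on the designs. Brown adipose pool pair 1 was hybridised on both designs, and its values were 0.40 on the first and 0.31 on the second for Myc, and 0.06 and 0.05 for Pmm1. For Azin1 they were 0.25 on the first design and -0.46 and 0.49 on the second. Over the 943 genes on both designs these values correlated at 0.21, and 57.4% lay on 1 side. As centred on the array, the Myc and Pmm1 values of this RNA were thus on 1 side by different clones. Those of Azin1 were on 1 side for 1 of the pair of clones.

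**Figure D5:**
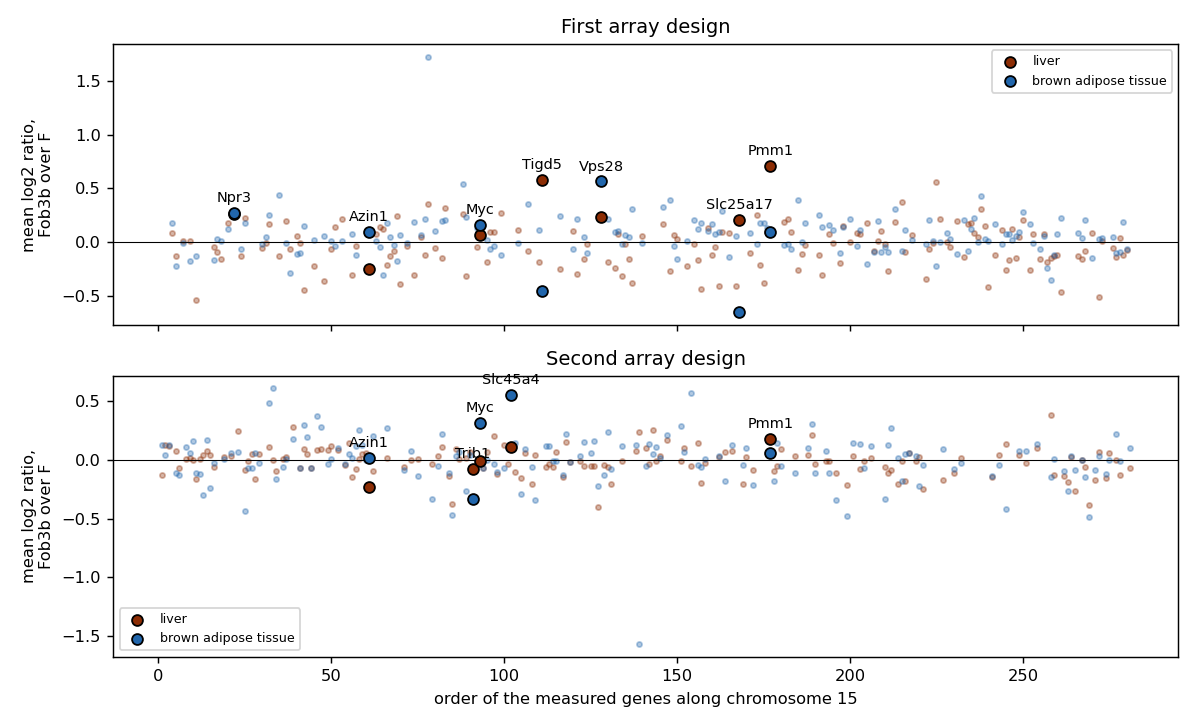
Mean log2 ratio (vertical axis) of each measured chromosome 15 gene against its order along the chromosome (horizontal axis), with the listed genes as large named points and the others small. The upper panel is the first design and the lower the second. Tigd5 and Slc25a17 have liver points above 0 and brown adipose points below it, with Vps28, whose points are both above 0, between them.

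The nearest measured genes are given as a description of the surroundings, since most listed genes were positive in liver on the first design and 44.9% of all genes were. On the first design 4 of 14 neighbours, 1 before and 1 after each gene, lay on the side of the listed gene in liver and 6 of 14 in brown adipose tissue. On the second 4 of 10 did in liver and 3 of 10 in brown adipose tissue. There Trib1 and Myc count as neighbours of each other, and without them the counts were 2 of 8 and 3 of 8. Both neighbours of Pmm1 on the first design, Csdc2 at 0.09 and Mei1 at 0.19, were positive in liver like it, and on the second both, L3mbtl2 at -0.09 and Xrcc6 at -0.10, were negative. Both neighbours of Tigd5, Eef1d at -0.18 and Puf60 at -0.25, were negative in liver and, at 0.11 and 0.24, positive in brown adipose tissue, the opposite of Tigd5 in each tissue. Both of Slc25a17, Adsl and Rbx1, likewise lay on its other side, at -0.41 and -0.10 in liver and with brown adipose means of 0.06 and 0.09. The positive liver side of Slc25a17 rested on 1 array, without which its liver mean was -0.16. The neighbours were not recomputed without that array, so their side in liver relative to Slc25a17 is not settled. The other 155 chromosome 15 genes of the first design had a median of -0.04 in liver and 0.05 in brown adipose tissue, and none passed the threshold.

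The likeness of other genes to the listed ones was measured over the 8 arrays of the first design and the 6 of the second that set the lines directly against each other. On the first, between 8 genes, for Npr3, and 78, for Tigd5, of 3837 had an r over 0.9, with 9 for Vps28, 11 for Myc and 17 for Slc25a17. Tigd5 was nearest to Nfkbiz (Pearson's r 0.991 over 8 arrays) and Dnph1 (0.986), both printed in its own block. Pmm1 was nearest to Itgb3bp (0.99) and Spata5 (0.98) on the first design and Aldh3b1 (0.99) and C2cd3 (0.978) on the second. Azin1 was nearest to Hbp1 (0.99) and Ncoa4 (0.983) on the first and Rex1bd (0.996) and Aar2 (0.995) on the second. Gene means were compared, so the values of Azin1 on the second design and of Npr3 on the first averaged clones that disagreed. Vps28 was nearest to Khdc4 (0.961), Slc25a17 to Champ1 (0.966), Npr3 to Ncoa2 (0.945) and Myc to Dnajb6 (0.945), the last of these in the same printing block. On the second design Slc45a4 was nearest to Npc2 (0.994), Myc to Baiap2l1 (0.995) and Trib1 to Rac2 (0.971), with 109, 130 and 19 genes of 4074 over 0.9.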

How the data were processed

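Total RNA of mouse liver and brown adipose tissue was hybridised on 20 two-colour cDNA arrays of 2 designs, per the labels. The authors deposited a log2 ratio of red and green for each spot, whose base was read as 2 because none is stated. The sources used here do not give their normalization or any other step before deposition. No intensities were used, so signal over background was not checked, and the number of arrays limits the precision.

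The median of all clone spots was subtracted from each array, the paired spots of each of 7680 clones were averaged, and ratios were turned to Fob3b over F by the channel labels. Where a description and the channels differed, as for the brown adipose arrays of the second design and the Fob3b array against itself, the channels were followed. The dye swap of a pool pair was averaged, giving n = 2 pool pairs per tissue and design (1 for brown adipose tissue on the second). The p-values rest on the spread between pool pairs, drawn mostly from the spread shared over all clones. Differences between arrays enter that spread along with those between pools. limma 3.58.1 in R 4.3.3 fitted tissue as the factor, with two-sided moderated tests and Benjamini-Hochberg adjustment over all clones of a design. The fit alone, not the steps before it, was run on simulated clones without dye or printing-block effects. SE is limma's moderated standard error, SD the standard deviation between pool pairs. Genes are means over their clones. The numbers of the pools were checked for pairing the tissues: pool pair 1 minus pool pair 2 correlated at 0.38 over clones between liver and brown adipose tissue, but with only 2 pairs the numbers were not used as pairs.

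Clones were named from the supplied annotation of the arrays, and GRCm38.p6 gave names, gene order and promoters. The members, the gene lists and the tests were chosen with earlier results of these data known. Named were all members, up to 3 genes of largest mean per list and comparison, and the 2 most alike genes per member, with nearest neighbours added after their values were seen.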

Additional observations from a re-analysis of the deposited data

Results flagged for a closer look

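Of 22 sets of 4 arrays of a listed clone, 3 had a single array farther from the other 3 than Dixon's 95% limit allows. The share over all clones was not computed, and the arrays differ in spread, so nothing is read from this count. All were liver on the first design. Pmm1 clone 7709 read 1.95 in pool pair 2 with Fob3b in red, against 0.13 to 0.38 on the other arrays. Slc25a17 clone 9101 read 1.22 in pool pair 2 with Fob3b in green, against -0.23 to -0.02. Npr3 clone 11972 read -0.17 in pool pair 1 with Fob3b in green, against 0.03 to 0.06.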

How the results depend on the processing

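On the first design the counts of clones past the threshold were 0 in liver, in brown adipose tissue and for liver minus brown adipose tissue. They were 47, 397 and 9 from the arrays with Fob3b in red alone. Among these were Pmm1 clone 7709 (limma adjusted p 0.00725) in liver and Vps28 (limma adjusted p 6.88e-04) in brown adipose tissue. With Fob3b in green alone the counts were 0. In 1 dye orientation, line and dye cannot be told apart, so these calls are not read as line differences. The Pmm1 and Vps28 calls also include the spots that disagreed, 0.69 and 3.21 for Pmm1 and 0.50 and 2.35 for Vps28. In brown adipose tissue 1 passed with no centring and 4 with each tissue fitted alone, none of them listed. Leaving out 1 pool pair gave 0 to 140 in liver, 0 to 4 in brown adipose tissue and 0 to 95 for the difference, with 140 and 95 without liver pool pair 2. With the pool number as a replicate block they were 0, 0 and 0, and on the second design no such fit was possible for lack of residual degrees of freedom. Listed genes on 1 side in both tissues numbered 1, Npr3, with Fob3b in green alone, and 3 to 5 otherwise. The share of all genes on 1 side was 48.3% with Fob3b in green alone and 25.4% to 61.6% otherwise.

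On the second design the 29 liver clones became 159 with no centring, 75 with the second spots alone, 7 with clones of a gene averaged and 2 with every array as its own replicate. The count was 0 with printing blocks centred, with arrays scaled, with either dye orientation alone, with the first spots alone and with crossed-pool arrays added, where limma's unadjusted p was under 0.05 for 337 to 862 clones. Azin1 clone 23793 also passed with no centring and with the second spots. Without either liver pool pair no test was possible. All 5 listed genes shared a side with Fob3b in red alone, where 68.6% of all genes did. Otherwise 2 to 4 listed genes did, beside 50.7% to 96.3% of all genes. The cause of these changes was not tested. Of 28 clone means 11 kept 1 sign under every alternative, and 30 of 246 recomputed means had the other sign. Leaving out single arrays was added after seeing the data. Without the liver array of pool pair 2 with Fob3b in green the counts of calls on the first design were still 0 in liver and for the difference.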
